A study of Danio rerio with 4 samples.

Results

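The 150 most abundant transcripts of wild-type zebrafish larvae were followed into larvae that lack znf574. They were the 150 transcript identifiers with the highest mean TPM in the wild-type libraries, out of 57775 listed, or 0.26%. TPM is a transcript level corrected for transcript length, scaled so that all transcripts of a library sum to 1000000. Poly(A) RNA of whole larvae was sequenced in 4 libraries, 2 of znf574-/- mutants and 2 of siblings of wild-type appearance that were znf574+/+ or znf574+/-. All came from crosses between heterozygous carriers in the AB background and received no treatment. Mutants and siblings were told apart by appearance 7 days after fertilization, and eggs were kept in the incubator for 8 days. The wild-type group may therefore mix genotypes. The labels state neither the number of larvae in a library nor whether replicates came from separate clutches, so the spread between libraries may be partly technical.

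A small set of genes supplies a large share of the messenger RNA of any animal, and in fish larvae such genes include those for muscle proteins, ribosomal proteins, keratins, digestive enzymes and proteins encoded by the mitochondrial genome. The study describes znf574 as a factor in quality control of ribosome assembly, a process to which the ribosomal protein mRNAs contribute the protein parts. None of the transcript identifiers could be paired with a gene (0 matches to a table of 29201 gene identifiers and to 49597 RefSeq genes). The members are therefore called by their wild-type rank, 1 being the most abundant. The level of znf574 and markers of cell types were not analysed here. In whole larvae, fewer cells of a type and less RNA per cell cannot be told apart.

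The members reached from 1397 to 15320 TPM as a wild-type mean. These wild-type levels chose them and are a description only. The last transcript inside the set had 1152 and 695 TPM in mutants against 1401 and 1392 TPM in wild type. The first one outside had 2807 and 3908 TPM in mutants against 1568 and 1217 TPM in wild type. Member levels reached down to 0 TPM in mutant replicate 1 and 49.0 TPM in mutant replicate 2, against lowest values of 422 and 1081 TPM in the wild-type libraries. The median member had 1759 and 1685 TPM in mutants, against 2481 and 2606 TPM in wild type. The level of 1000 TPM was reached by 117 and 113 members in mutants, against 149 and 150 in wild type, and 25 members stayed under it in both mutant libraries.

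**Figure D1:**
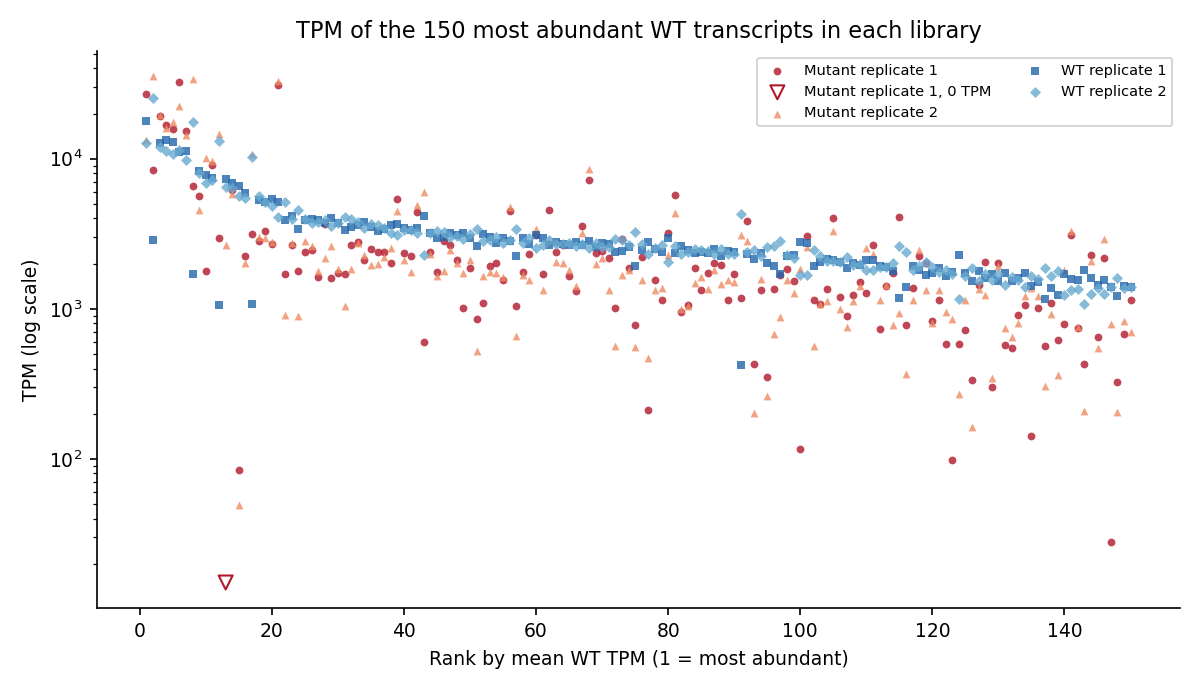
TPM on a log scale of each of the 150 members in each of the 4 libraries, ordered by mean wild-type TPM. The wild-type points follow a narrow band that the ranking itself sets, apart from 5 members low in wild-type replicate 1, while the mutant points spread from 0 TPM (open triangle, rank 13) to 35530 TPM.

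The members together held a similar share of all TPM in both genotypes, but the share was spread differently among them. They held 44.3% and 49.3% of TPM in mutants, against 47.1% and 52.2% in wild type, or 46.8% ± 3.52 and 49.6% ± 3.63 (SD, n = 2 each). The ranges overlap, and the genotypes differed by less than the libraries of each genotype did. The share of estimated counts, which favours long transcripts, was 27.1% and 31.5% in mutants against 28.2% and 32.4% in wild type. The 10 members at the top held 14.9% and 18.7% of TPM in mutants, against 9.98% and 12.6% in wild type, so both mutant libraries lay above both wild-type libraries. Ranks 11 to 50 held 13.1% and 15.6% in mutants, against 16.0% and 17.7% in wild type. Ranks 51 to 150 held 16.3% and 15% in mutants, against 21.1% and 21.9% in wild type. In both of these classes the mutant libraries lay below the wild-type ones. TPM has a fixed sum, so a larger share for some transcripts lowers the rest. With the 10 top members left out of the sum as well, the other 140 held 34.6% and 37.7% of TPM in mutants against 41.2% and 45.3% in wild type. The same wild-type levels chose these 140, which leans their mutant share downward. Other transcripts that rose in mutants stayed in the sum, so the fixed sum still acts on these shares. They are a description only.

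**Figure D2:**
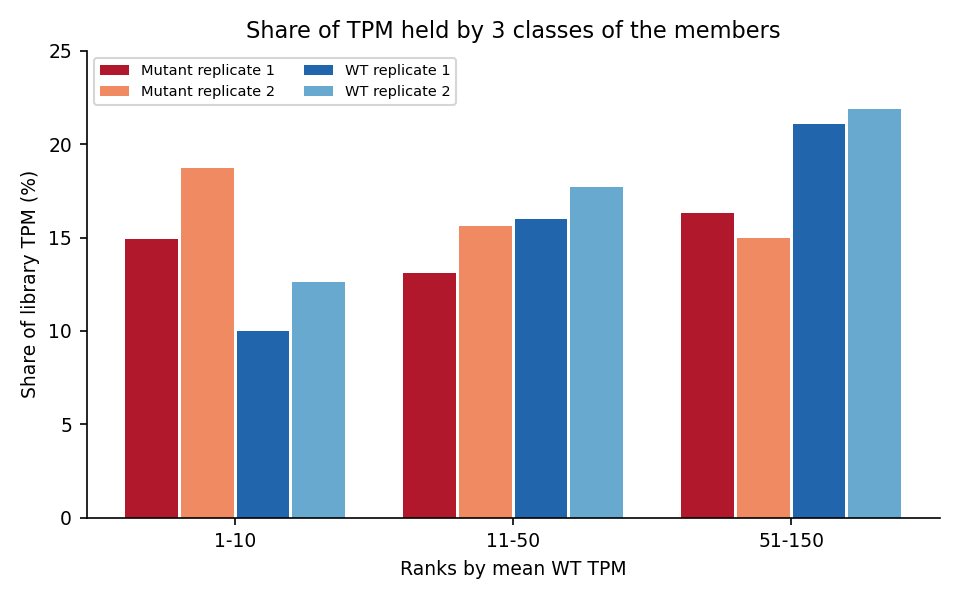
Share of each library's total TPM, in percent, held by wild-type ranks 1 to 10, 11 to 50 and 51 to 150, with 1 bar per library. Mutant bars are the taller ones for ranks 1 to 10 (14.9% and 18.7% against 9.98% and 12.6%) and the shorter ones for ranks 51 to 150 (16.3% and 15% against 21.1% and 21.9%).

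The first 25% of TPM was held by fewer transcripts in mutants, while the measures that reach further down overlapped between genotypes. The fewest transcripts that together held 25% of TPM, members or not, numbered 22 and 13 in mutants against 45 and 34 in wild type. For 50% of TPM the numbers were 144 and 113 in mutants, against 172 and 134 in wild type, and there the groups overlap. For 75% of TPM the numbers were 1154 and 963 in mutants, against 1212 and 771 in wild type, again with overlap. A library's own 150 most abundant transcripts held 50.8% and 54.3% in mutants, against 47.4% and 52.4% in wild type, which overlap as well.

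Of the 150 members, 112 were also among the 150 transcripts with the highest mean TPM in mutants, or 74.7%, and 38 were not. The top 150 of mutant replicate 1 held 106 members and that of mutant replicate 2 held 116. In the wild-type libraries, which chose the members, the numbers were 143 and 141. A comparison that the choice does not favour is between single libraries. The top 150 lists of the mutant libraries shared 118 transcripts and those of the wild-type libraries shared 134. Lists of a mutant and a wild-type library shared 105 to 116, fewer than either pair of replicates. By mean mutant TPM, all of ranks 1 to 10 and 39 of the 40 at ranks 11 to 50 stayed in the top 150. So did 39 of 50 at ranks 51 to 100 and 24 of 50 at ranks 101 to 150. Members near rank 150 leave the list after a smaller shift than those at the top, so the counts by class are a description. Of ranks 1 to 50, besides rank 15, ranks 13, 43 and 49 lay outside the top 150 of mutant replicate 1. Ranks 22 and 24 lay outside that of mutant replicate 2.

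**Figure D3:**
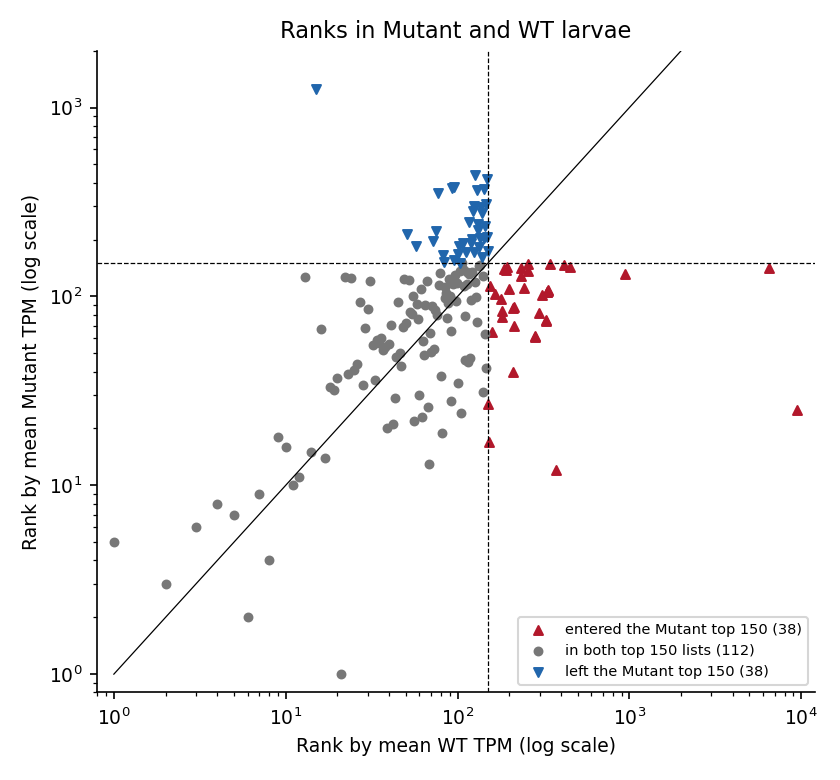
Rank by mean mutant TPM against rank by mean wild-type TPM, both on log scales, for the 150 members and the 38 transcripts that took their places, with dashed lines after rank 150 and a solid line of equal rank. Grey points are the 112 members in both lists, and those that left or entered lie mostly close to the dashed lines, with 1 member that left at mutant rank 1261 and 2 that entered at wild-type ranks 6487 and 9424 far from them.

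Rank order within the set is described with a limit: the choice by wild-type mean holds the wild-type ranks together and lets the mutant ranks drift, so shifts between and within genotypes are not on an equal footing. The median member moved by 30.5 places between the mutant and the wild-type ranking of group means. Between single libraries, a different measure, it moved by 20.5 places in mutants and by 10 places in wild type. Only 29 members lay within 10 places of their wild-type rank, 110 ranked further down in mutants and 40 further up. Ranks 2, 11, 12 and 14 moved by 1 place between the rankings of group means. For ranks 2 and 12 these means averaged replicates that lay far apart. Rank 2 stood at places 54 and 1 in wild type and at 9 and 1 in mutants. Rank 12 stood at places 179 and 3 in wild type and at 36 and 8 in mutants. Rank 11 had 9060 and 9648 TPM in mutants against 7387 and 7166 TPM in wild type, and rank 14 had 6141 and 5829 TPM in mutants against 6923 and 6381 TPM in wild type. Spearman's rho of TPM across the 150 members, a description over transcripts that share libraries, was 0.81 between the mutant libraries, 0.75 between the wild-type libraries and 0.51 to 0.58 between genotypes. The median absolute log2 ratio of a member's TPM was 0.28 between the mutant libraries, 0.12 between the wild-type libraries and 0.74 to 0.79 between genotypes.

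Most members were lower in mutants. The TPM of both mutant libraries lay below that of both wild-type libraries for 110 members, against 26.7% of all transcripts tested. It lay above for 22 members, against 38.7% of all transcripts tested, and overlapped for 18. The 110 held 17.2% and 16.0% of TPM in mutants against 30.3% and 30.9% in wild type. The 22 held 19.6% and 18.7% in mutants against 10.9% and 9.98% in wild type. Among the 110 the mean TPM was 1.11-fold to 92.0-fold lower in mutants with a median of 1.76-fold, and 41 members in all were at least 2-fold lower, against 14.7% of the transcripts tested. Among the 22 the ratio of means ran from 1.16 to 6.9 with a median of 1.44, and 6 members in all were at least 2-fold higher, against 21.7% of the transcripts tested. Because the members were chosen for a high wild-type level, their mutant over wild-type ratios lean downward by construction, and nothing is read from these counts against the background.

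The edgeR quasi-likelihood test was run across all 39773 transcripts tested, with p-values adjusted by Benjamini-Hochberg and a threshold of 0.05. It called 63 members lower in mutants and 4 higher, so 83 did not pass. Of all transcripts tested, 19.7% were called, 10.2% lower and 9.5% higher. The median log2 fold change was -0.81 over the members and -0.01 over all transcripts tested. The wild-type side of this contrast chose the members, so the counts are descriptions. With 150 transcripts chosen by the mean over all 4 libraries instead, 52 were lower and 11 higher with a median of -0.72. With 150 chosen by the mutant libraries, 38 were lower and 16 higher with a median of -0.38. The number of edgeR calls depended on which library was left out, across the whole table. The members' median log2 fold change stayed negative with 1 library left out, but ran between -0.98 and -0.65. It was -0.87 without mutant replicate 2, where the edgeR calls stayed closest to those of the main fit. Single members changed sign, as given in the last section. Without wild-type replicate 1 edgeR called 0.0% of transcripts in either direction and so 0 members, with a median of -0.98 over the members. At an unadjusted p under 0.05 stood 92 members and 25.2% of transcripts. Without wild-type replicate 2 edgeR again called 0.0% of transcripts and 0 members, with a median of -0.65. At an unadjusted p under 0.05 stood 66 members and 24.5% of transcripts. Without mutant replicate 1 edgeR called 27 members lower and 3 higher, against 5.41% and 3.83% of transcripts, with a median of -0.85. DESeq2 with all libraries called 101 members lower and 13 higher, against 12.9% and 12.2% of transcripts. It called 95 and 4 without wild-type replicate 1 (5.95% and 7.28% of transcripts) and 73 and 8 when replicate 2 of wild type was left out (5.69% and 7.23%). With mutant replicate 1 left out, it called 104 and 13 (9.57% and 5.09%).

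The calls are given by level of abundance. Of ranks 1 to 10, 1 was lower and 1 higher, of ranks 11 to 50 it was 19 and 1, of ranks 51 to 100 it was 24 and 1, and of ranks 101 to 150 it was 19 and 1. For ranks 1 to 10 these counts equal about the shares of all transcripts tested given above. The median log2 fold change was 0.31, -0.80, -0.83 and -1.0 in these classes.

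The top 10 split by pattern. Ranks 3, 4, 5 and 7 had all mutant values above all wild-type values, as did 38.7% of all transcripts tested, without passing the edgeR threshold. DESeq2 with all libraries called ranks 3, 4 and 7 higher (adjusted p = 0.0016, 0.0057 and 0.0014) but not rank 5 (adjusted p = 0.055). Rank 3 had 19207 and 19425 TPM in mutants against 12690 and 12054 TPM in wild type (log2 fold change 0.46, edgeR adjusted p = 0.113). Rank 6 had 32637 and 22440 TPM in mutants against 11054 and 11354 TPM in wild type, and rose (log2 fold change 1.1 ± 0.23 SE, edgeR adjusted p = 0.0413). Rank 9, of 461 bases, fell to 5655 and 4581 TPM in mutants, against 8332 and 8036 TPM in wild type (log2 fold change -0.87 ± 0.16 SE, edgeR adjusted p = 0.0324). The calls of ranks 6 and 9 did not hold in every fit. With a replicate block, where edgeR called 0 of all transcripts, the edgeR adjusted p was 0.12 for rank 6 and 0.11 for rank 9. In limma on log2(TPM + 1) without a filter the adjusted p was 0.058 and 0.091. DESeq2 with all libraries called both (adjusted p = 1.8e-05 and 8e-07). Ranks 1, 2, 8 and 10 had overlapping groups. Rank 1, of 330 bases, had 26977 and 13249 TPM in mutants against 17896 and 12743 TPM in wild type, so the libraries of each genotype lay further apart than the genotype means. Rank 10 had 1792 and 10055 TPM in mutants against 7730 and 6857 TPM in wild type, so that the mutant libraries lay on either side of the wild-type ones.

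The largest fall of a member in mutants was that of ENSDART00000162599.2, wild-type rank 15, of 621 bases. It had 84.2 and 49.0 TPM in mutants, against 6584 and 5671 TPM in wild type. Its mean TPM was 92.0-fold lower in mutants, where it ranked 1261 (log2 fold change -6.72 ± 0.32 SE, edgeR adjusted p = 0.00825). Of ranks 1 to 50, it alone left the top 150 by mean mutant TPM, though others lay outside that of a single mutant library. Its estimated counts, 1604.6 and 736.9 in mutants, were not whole by the measure given further on. The part of reads shared with other transcripts in its fall was not tested. By the edgeR log2 fold change, the next largest fall among members called was that of ENSDART00000145610.2, rank 95, of 519 bases. It had 350 and 262 TPM in mutants, against 2014 and 2573 TPM in wild type (log2 fold change -3.12 ± 0.28 SE, edgeR adjusted p = 0.0128), and its mutant rank was 379.

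The 10 members that lost the most ranks in both mutant libraries held wild-type ranks 15, 51, 77, 93, 95, 124, 126, 129, 143 and 148. All 10 were called lower, against 10.2% of all transcripts tested, with log2 fold changes between -2.18 and -6.72. They were chosen by their rank loss in mutants, the same contrast, so the calls are a description. Rank 129 was steady within each genotype at 300 and 344 TPM in mutants, against 1693 and 1566 TPM in wild type. Rank 77 had 211 and 467 TPM in mutants, against 2767 and 2318 TPM in wild type. Among the 38 members that left the mutant top 150, 37 had both mutant values below both wild-type values, against 26.7% of all transcripts tested. Of the 38, 25 were called lower, against 10.2% of all transcripts tested. Lower mutant levels helped to choose these 38, so the counts are a description. Their mutant ranks ran from 151 to 1261 with a median of 210, and 10 lay beyond 300. Of the 38, 27 were outside the top 150 of both mutant libraries, 8 were inside that of replicate 2 alone and 3 inside that of replicate 1 alone.

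The largest rise of a member was that of ENSDART00000093612.3, rank 21, of 684 bases, which was the most abundant transcript of mutants by mean TPM. It had 30820 and 33118 TPM in mutants, against 5178 and 4084 TPM in wild type (31969 ± 1625 and 4631 ± 774 TPM, SD, n = 2 each). The log2 fold change was 2.62 ± 0.17 SE (edgeR adjusted p = 0.00917). Next came ENSDART00000093625.3, rank 68, of 1141 bases, with 7181 and 8512 TPM in mutants against 2827 and 2541 TPM in wild type (log2 fold change 1.37 ± 0.18 SE, edgeR adjusted p = 0.0203). The fourth member called higher, beside these and rank 6, was rank 141, with 3124 and 3291 TPM in mutants against 1580 and 1324 TPM in wild type (log2 fold change 0.97 ± 0.14 SE, edgeR adjusted p = 0.0227). Over 17 other fits the log2 fold changes of the 4 transcripts given by identifier stayed about as large, at -7.09 to -6.38 for rank 15, -3.40 to -2.76 for rank 95, 2.53 to 2.80 for rank 21 and 1.21 to 1.54 for rank 68. Their adjusted p missed the threshold, at up to 0.11 to 0.14, in 3 of the fits (edgeR without either wild-type library and edgeR with a replicate block), in which edgeR called 0 of all transcripts.

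The 10 members that gained the most ranks in both mutant libraries held wild-type ranks 81, 92, 101, 105, 111, 118, 130, 141, 144 and 146. Of these 10, edgeR called rank 141 alone higher, about the share of all transcripts tested that were called higher (9.5%). They were chosen by their rank gain in mutants, the same contrast, so the call is a description. Rank 81 had 5714 and 4340 TPM in mutants against 2355 and 2601 TPM in wild type and took mutant rank 19. Rank 105 had 4031 and 3274 TPM in mutants against 2109 and 2068 TPM in wild type and took mutant rank 24. Rank 130 had 2021 and 1933 TPM in mutants against 1525 and 1708 TPM in wild type. Its edgeR log2 fold change was 0.09 (adjusted p = 0.760), and it still moved up to mutant rank 73.

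Members with neighbouring identifier numbers were looked at after the values had been seen. Members were joined into runs where their Ensembl numbers lay at most 20 apart, and 2 runs held 3 members or more. One run held 7 members, wild-type ranks 4, 5, 7, 21, 68, 141 and 146, with numbers 93600 to 93625. All 7 had both mutant values above both wild-type values, and 3 of them were called higher, against 38.7% and 9.5% of all transcripts tested. They made up 7 of the 22 members that lay above wild type. They took 9.14% and 9.56% of all TPM in mutants against 4.86% and 4.1% in wild type. Their share of the members' TPM was 20.6% and 19.4% in mutants against 10.3% and 7.86% in wild type. Without these 7 the members held 35.2% and 39.8% of TPM in mutants, against 42.2% and 48.1% in wild type.

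The tables list 14 transcripts in this stretch of numbers, 93583 to 93625, and 13 of them were in the mutant top 150. Besides the 7 members, 6 entered it from wild-type ranks 151 to 374. All 13 had both mutant values above both wild-type values, against 38.7% of all transcripts tested. Of the 14, 7 were called higher and 0 lower (edgeR quasi-likelihood test, adjusted p under 0.05), against 9.5% and 10.2% of all transcripts tested. The stretch was picked after the values had been seen and the 6 entrants by their mutant levels, so these counts are a description. The median log2 fold change of the 14 was 0.83. The steepest rise was that of wild-type rank 374, of 165 bases, to 7945 and 9519 TPM in mutants, against 270 and 428 TPM in wild type (log2 fold change 4.43 ± 0.41 SE, edgeR adjusted p = 0.014). The exception was a rare transcript with 2.85 and 1.70 TPM in mutants against 4.11 and 2.47 TPM in wild type. Estimated counts were whole numbers, by the measure given further on, for 10 of the 14, so their reads were not visibly divided with other transcripts. The 3 most abundant, ranks 4, 5 and 7, had log2 fold changes of 0.25, 0.31 and 0.31 that did not pass the edgeR threshold.

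**Figure D4:**
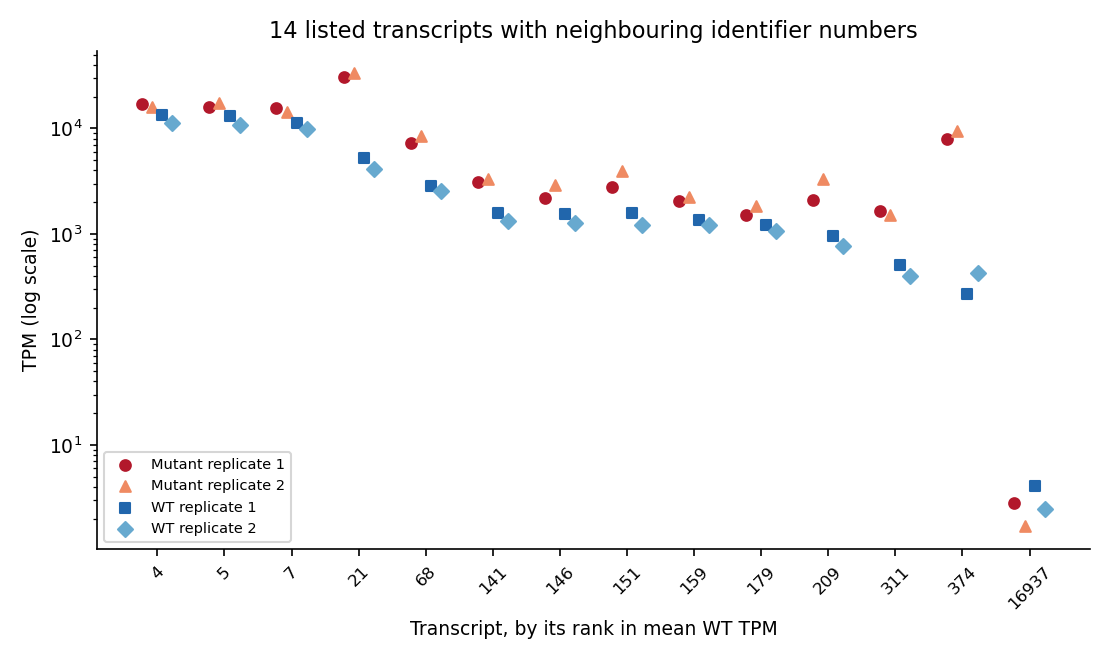
TPM on a log scale of the 14 listed transcripts with neighbouring identifier numbers in each library, ordered by wild-type rank. For 13 of them both mutant points lie above both wild-type points, with the widest gaps at ranks 21 and 374, and the rare transcript at rank 16937 is the exception.

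The other run, ranks 31, 129 and 148, was lower in mutants throughout and all 3 were called, against 26.7% and 10.2% of all transcripts tested. Together they had 2323 and 1595 TPM in mutants, against 6261 and 7269 TPM in wild type. None of these 3 had whole estimated counts.

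Some members differed more between libraries of 1 genotype than between genotypes. Ranks 2, 8, 12, 17 and 91 were at least 2-fold higher in replicate 2 than in replicate 1 in both genotypes. Rank 8, of 1212 bases, had 6568 TPM in mutant replicate 1 and 33930 TPM in mutant replicate 2, against 1702 TPM in wild-type replicate 1 and 17482 TPM in wild-type replicate 2. Rank 12 had 2940 and 14544 TPM in mutants against 1059 and 13033 TPM in wild type. The replicate 2 over replicate 1 ratio of the 5 ranged from 2.61 to 5.17 in mutants and from 8.78 to 12.3 in wild type. Their summed level was 22295 and 97793 TPM in mutants, against 7134 and 70261 TPM in wild type. No member went the other way in both genotypes. Of the transcripts with a mean of at least 1 TPM, 1.57% were at least 2-fold apart the same way in both genotypes, against 3.33% of the members. That 1.57% takes in both directions, with 151 transcripts higher in replicate 2 and 318 higher in replicate 1. The direction of the 5 members was thus the less frequent one. No label ties the replicate numbers to a clutch or day, and what these 5 share was not tested. Without them the remaining members held a mean of 40.8% of TPM in mutants and 45.7% in wild type.

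**Figure D5:**
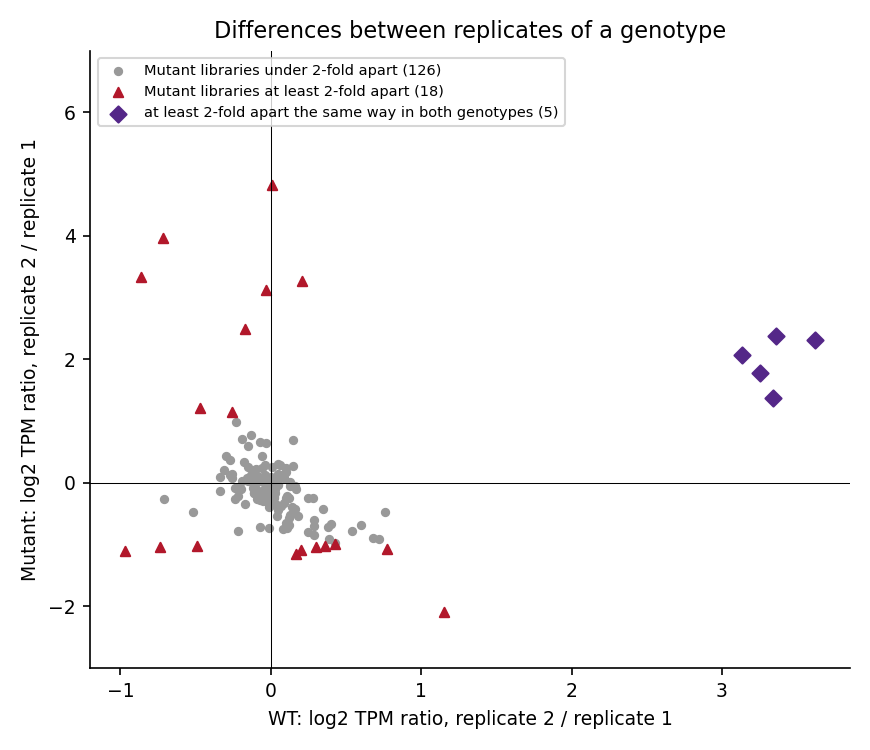
Log2 TPM ratio of replicate 2 to replicate 1 in mutants against the same ratio in wild type for 149 members; rank 13, at 0 TPM in mutant replicate 1, has no ratio. Purple diamonds are the 5 members higher in replicate 2 in both genotypes, red triangles are 18 others at least 2-fold apart in mutants, and 126 grey points lie closer together.

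The mutant libraries were at least 2-fold apart for 24 members, or 16.0%, against 14.5% of the transcripts with a mean of at least 1 TPM. The wild-type libraries, which the ranking averages, were that far apart for 6, or 4.0%, against 11.6%. In 14 of the 24 mutant replicate 2 was the higher and in 10 replicate 1. Rank 13, of 153 bases, was at 0 and 2655 TPM in mutants against 7324 and 6489 TPM in wild type. Rank 147 had 28.0 and 788 TPM in mutants against 1399 and 1407 TPM in wild type. Rank 123 had 98.8 and 858 TPM in mutants against 1752 and 1713 TPM in wild type. Both wild-type values lay above both mutant values for these 3, and none passed the threshold. Rank 43 had 601 and 6038 TPM in mutants against 4174 and 2294 TPM in wild type, with the mutant libraries on either side. Without the 24 members, 58 of the remaining 126 were called lower and 4 higher, against 10.2% and 9.5% of all transcripts tested. The choice by wild-type level leans these counts downward.

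Whether reads were shared with other transcripts could be seen for part of the set. kallisto divides a read that matches several transcripts, which leaves estimated counts that are not whole. The deposited estimates show decimals only below 100000 counts, members with fewer than 2 such values were set aside, and a value within 0.005 of a whole number counted as whole. By this measure 16 members were whole in each library that showed it, 116 were divided and 18 could not be told. Of all transcripts tested, 10.2% were called lower and 9.5% higher. The choice by wild-type level leans the counts of members downward in each class, so they are a description. Of the 16 whole members, 8 were called lower and 3 higher, with a median log2 fold change of -0.83. Of the 116 divided members, 55 were called lower and 0 higher, with a median of -0.90. Of the 18 members that could not be told, 0 were called lower and 1 higher, 12 lay above and 1 below wild type, and the median was 0.28. Mutant counts helped to set this class, since a member with fewer than 2 values below 100000 fell into it. A high mutant level therefore favours it, and its contrast with the divided members is a description only. All 16 whole members had groups that did not overlap, 12 below and 4 above wild type, against 26.7% and 38.7% of all transcripts tested. The 4 above were ranks 21, 68, 141 and 146 of the identifier run. Among the 16 whole members 0 were 2-fold apart between the mutant libraries, against 21 of the 116 divided ones. The share was 14.5% of the transcripts with a mean of at least 1 TPM, so 16 members are too few to read anything from the 0. The part of divided reads in the spread between libraries was not tested. Rank 132, of 433 bases and whole, had 547 and 646 TPM in mutants against 1522 and 1634 TPM in wild type (log2 fold change -1.59 ± 0.21 SE, edgeR adjusted p = 0.0197). Rank 61, of 412 bases and whole, had 1700 and 1340 TPM in mutants against 2978 and 2646 TPM in wild type (log2 fold change -1.08 ± 0.14 SE, edgeR adjusted p = 0.0198).

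Members were short. Their lengths ran from 153 to 5903 bases with a median of 653, against 1761 for transcripts with a mean of at least 1 TPM. Ranking by TPM, which divides by length, favours short transcripts, and 113 of the 150 were also among the 150 with the most counts. Of all transcripts tested, whatever their length, 10.2% were called lower and 9.5% higher. Both mutant values lay below wild type for 26.7% of them and above for 38.7%. Such shares by length class are not given here, and the choice by wild-type level leans the counts of members downward. Of 39 members of up to 500 bases, 21 were called lower and 0 higher, and in 0 of them did both mutant values lie above wild type. Of 80 members of 501 to 1000 bases, 38 were called lower and 2 higher. Of 31 members over 1000 bases, 4 were called lower and 2 higher, while 13 had mutant values above wild type and 12 below. The median log2 fold changes in these classes were -0.87, -0.92 and 0.04, against -0.43, -0.23 and 0.05 for all transcripts tested of the same lengths. Members over 1000 bases held 10.7% and 13.9% of TPM in mutants, against 9.38% and 10.2% in wild type. Those of up to 500 bases held 10.3% and 12.6% in mutants, against 13.3% and 16.2% in wild type. The part of transcript length in the falls of members was not tested.

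The 38 transcripts that took the vacated places were chosen by their mutant levels, so their rises too are a description. They held 8.18% and 6.75% of TPM in mutants against 2.49% and 2.79% in wild type. The 38 members that left held 2.48% and 2.54% in mutants against 7.43% and 7.92% in wild type. The entrants came from wild-type ranks 151 to 9424 with a median of 250, and 14 came from beyond rank 300. Both mutant values lay above both wild-type values for 29, against 38.7% of the transcripts tested. For 12 of the entrants edgeR called a higher level, against 9.5% of the transcripts tested. Wild-type rank 152 reached mutant rank 17 with 5808 and 5008 TPM in mutants against 1713 and 1045 TPM in wild type. Only 19 of the 38 were in the top 150 of both mutant libraries. Wild-type rank 9424 owed its place to mutant replicate 1, with 6859 and 10.3 TPM in mutants against 7.27 and 7.92 TPM in wild type. Wild-type ranks 282 and 283 each had 4104 and 264 TPM in mutants against 568 and 461 TPM in wild type. Among the entrants 8 formed 3 sets with the same length and the same TPM in every library, so their reads cannot be assigned to 1 of them. No pair of members did so.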

How the data were processed

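The tools were bcl2fastq 2.20, kallisto 0.46.0 and DESeq2 2.11.40, per the submitters' processing notes. Those list danRer11 and GRCz11 as genome builds. Neither the options of kallisto nor the release of the annotation is stated in the labels. The expected counts deposited by the authors are kallisto's estimates per transcript, not normalized, and totalled 42901442 and 31653921 in mutants, against 35764394 and 36320540 in wild type. The authors also deposited TPM, which divides the estimate by effective length and scales each library to 1000000. Members were ranked by mean wild-type TPM, ties by identifier. Levels, ranks and shares are TPM. Tests and log2 fold changes come from estimated counts rounded to whole numbers, in edgeR 4.0.16 (R 4.3.3; filterByExpr with minimum count 10 and total 15, TMM, a robust quasi-likelihood fit on genotype alone, Benjamini-Hochberg adjustment over all 39773 transcripts tested). All 150 members passed the filter. SE is the absolute log2 fold change over the square root of F. Each group has 2 libraries, and no alternative at a lower depth was run. The test was first tried on simulated data.

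The members, comparisons and lists were chosen with earlier results of these data known. Transcripts named follow a rule: the top 10 members, the 10 that lost and the 10 that gained the most ranks in both mutant libraries, the 10 most abundant entrants and the edge of the set, with at most 2 identifiers printed for each direction; others were picked after their values were seen. Same-numbered libraries were not paired: their deviations correlated at -0.122. Alternatives were DESeq2 1.42.0, log2 TPM values with a pseudocount of 1 or 0.1 in limma 3.58.1, other scalings, filters, member sets, a replicate block and leaving out each library.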

Additional observations from a re-analysis of the deposited data

How the results depend on the processing

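The main values were 63 members called lower, 4 higher, a median log2 fold change of -0.81, 74.7% of members kept in the mutant top ranks, and a mean share of TPM of 46.8% in mutants and 49.6% in wild type. Leaving out 1 library moved the lower calls between 0 and 104, the higher calls between 0 and 13 and the median between -0.98 and -0.65 (edgeR and DESeq2 together), the kept share between 70.7% and 77.3%, and the share of TPM between 44.3% and 49.3% in mutants, against 47.1% and 52.2% in wild type. The 0 counts came from edgeR without either wild-type library, fits that called 0 of 42497 and 0 of 42614 transcripts and so bear on the whole table. In DESeq2, dropping mutant replicate 1 left 104 lower and 13 higher calls and dropping mutant replicate 2 left 95 and 10. Dropping wild-type replicate 1 left 95 and 4, whereas dropping wild-type replicate 2 left 73 and 8 with a median of -0.68. With a replicate block, on numbers that no label ties to a clutch or day, edgeR called 0 lower and 0 higher (93 at an unadjusted p under 0.05, median -0.83), and 0 of all 39773 transcripts, and DESeq2 called 92 and 10. DESeq2 with all libraries called 101 and 13. Scaling by library size alone, which moves the log2 fold change of the median transcript up by 0.10, gave 7 higher and a median of -0.70. Limma changes test, unit and filter together. On log2(TPM + 1) it gave 9 higher and -0.64, and on log2(TPM + 0.1) it gave 8 higher and -0.64. Without a filter it gave 22 lower and -0.64. The median shift over transcripts from the main fit was 0.17, 0.18 and 0.16 in these fits, and the cause was not tested. RLE scaling and edgeR without a filter gave 64 and 62 lower, 4 and 4 higher, and -0.81 in both.

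Other member sets gave other values by construction. Members by mean TPM over all 4 libraries gave 11 higher, a median of -0.72, 85.3% kept and 50.4% of TPM in mutants. Members by the mutant libraries gave 38 lower, 16 higher and -0.38. Members by wild-type count gave 62.7% kept and 44.3% of TPM in wild type. The top 100 held 40.7% of TPM in mutants and 41.0% in wild type, and the top 300 held 57.3% and 61.9%, with 14 higher. TPM recomputed without the 10 most abundant gave 36.1% in mutants and 43.3% in wild type. Without members that follow the replicate number the shares were 40.8% and 45.7%. Whole counts alone gave 3 higher of 16.

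Of the transcripts named by rule, wild-type ranks 282 and 283 (log2 fold change 1.86, edgeR adjusted p = 0.36) turned direction without mutant replicate 1, to -1.08 in edgeR (adjusted p = 0.032) and -1.07 in DESeq2, and had 2.79 without mutant replicate 2. Further transcripts named by rule, none called with all libraries, changed sign when 1 library was left out. Over the edgeR fits without 1 library each, rank 1 ran between -0.32 and 0.62, rank 2 between -1.05 and 2.94, rank 8 between -0.87 and 3.58, rank 10 between -2.24 and 0.34, rank 101 between -0.00 and 0.42, rank 118 between -0.02 and 0.36, and rank 130 between -0.11 and 0.34. Rank 10 passed the threshold at -2.24 when mutant replicate 2 was left out (edgeR adjusted p = 0.016). The edgeR sign also changed to -0.48 for rank 2 and -0.07 for rank 8 when wild-type replicate 1 was dropped. In DESeq2 the changed values were -0.32 for rank 1 and 0.34 for rank 10 with mutant replicate 1 dropped, and -1.04 for rank 2 and -0.85 for rank 8 with mutant replicate 2 dropped. They were -0.50, -0.09, -0.03 and -0.11 for ranks 2, 8, 118 and 130 with wild-type replicate 1 dropped, and -0.04 for rank 101 with wild-type replicate 2 dropped.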
